A study of Homo sapiens with 6 samples.

Results

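Peaks of 6mA immunoprecipitation whose summits lay in CA dinucleotide repeats were examined in MDA-MB-453 cells, an established human breast cancer cell line. A nuclear peak was counted as a CA repeat peak where the 100-bp window centred on its summit held at least 8 tandem CA units on either strand. Windows with a run of 12 adenines, 8 tandem GA units, or 4 tandem GGAA or GAAA units on either strand were left out. The rule reads only the reference sequence under the summit, so enrichment values had no part in it beyond the peak call itself. It found 4101 CA repeat peaks among 143532 nuclear peaks of 4 libraries. Control cells received scramble siRNA, and si-N6AMT1 cells received siRNA against N6AMT1, a methyltransferase studied as a writer of DNA N6-methyladenine (6mA). Both were transfected at 10 nM with Lipofectamine RNAiMAX and taken after 48 h. Each group had 2 precipitated libraries, labelled as biological replicates, from DNA precipitated with the 6mA antibody of Synaptic Systems. Each group also had 1 input library, which was not analysed here on its own, and a precipitation with a non-specific antibody was not analysed here. The peak lists carry no expression value, so the knockdown itself was not checked here.

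CA repeats, which read as TG on the other strand, are the most common dinucleotide microsatellites of the human genome. Their length differs between people because the polymerase slips in the repeat during replication, and mismatch repair removes most of the resulting loops. The alternating purines and pyrimidines can adopt the left-handed Z-DNA form, and CA tracts in transcribed introns can bind proteins that influence splicing. In a CA tract the adenines stand on the CA strand alone, as they do on the GA strand of a GA tract, whereas a TA tract carries adenines on both strands.

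The windows below show the forms of CA repeat that carried summits. The first 5 were called in all 4 libraries. They hold an uninterrupted repeat, a repeat beside TA steps, an interrupted repeat, a short repeat among broken CA runs, and a long repeat. The TMC1 and RPH3A windows were called only in control, and the RUNDC3B window only in si-N6AMT1. The last 3 lie in the TGM2 promoter, in RB1 and in EGFR. Sequences are the forward strand of GRCh37 from 5′ to 3′, and capitals mark tracts of at least 8 CA or TG units.

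intergenic, chr1:145084433-145084532: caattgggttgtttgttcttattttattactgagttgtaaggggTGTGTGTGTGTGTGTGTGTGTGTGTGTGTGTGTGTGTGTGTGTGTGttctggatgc
NAALADL2 intron, chr3:175146916-175147015: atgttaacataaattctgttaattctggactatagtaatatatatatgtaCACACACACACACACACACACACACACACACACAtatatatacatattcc
THRA intron, chr17:38243446-38243545: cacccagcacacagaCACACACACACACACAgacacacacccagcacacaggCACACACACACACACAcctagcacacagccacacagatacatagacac
lncRNA ENSG00000233358 intron, chr6:22906620-22906719: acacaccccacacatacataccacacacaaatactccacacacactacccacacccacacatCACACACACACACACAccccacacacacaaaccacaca
SAMD4A intron, chr14:55145129-55145228: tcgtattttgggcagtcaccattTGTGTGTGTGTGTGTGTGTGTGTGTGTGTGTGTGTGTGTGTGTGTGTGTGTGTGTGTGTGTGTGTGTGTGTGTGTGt
TMC1 intron, chr9:75232819-75232918: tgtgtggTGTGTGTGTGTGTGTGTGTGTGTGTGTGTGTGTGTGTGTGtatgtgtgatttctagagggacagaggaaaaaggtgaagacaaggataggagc
RPH3A intron, chr12:113251762-113251861: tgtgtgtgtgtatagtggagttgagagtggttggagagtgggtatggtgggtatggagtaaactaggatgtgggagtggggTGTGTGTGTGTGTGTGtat
RUNDC3B intron, chr7:87412449-87412548: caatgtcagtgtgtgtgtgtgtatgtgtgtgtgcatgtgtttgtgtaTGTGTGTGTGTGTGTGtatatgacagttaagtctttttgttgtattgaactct
TGM2 promoter, chr20:36794056-36794155: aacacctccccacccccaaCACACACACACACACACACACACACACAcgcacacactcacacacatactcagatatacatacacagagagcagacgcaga
RB1 intron, chr13:49067359-49067458: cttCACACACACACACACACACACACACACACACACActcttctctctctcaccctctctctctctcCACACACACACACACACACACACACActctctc
EGFR intron, chr7:55159520-55159619: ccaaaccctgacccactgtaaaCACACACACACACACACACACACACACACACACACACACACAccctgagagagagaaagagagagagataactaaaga

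CA repeats were concentrated at summits in every library. CA repeat peaks made up 3.46% and 3.24% of nuclear peaks in control against 2.5% and 2.43% in si-N6AMT1. Of 28586281 windows of 100 bp tiled over the genome, 0.290% passed the same rule. The share at summits was therefore 11.9 and 11.2 times the genome share in control, and 8.62 and 8.39 times in si-N6AMT1. Before the exclusions, windows with 8 CA units made up 3.03 to 4.46% of summit windows over the 4 libraries. At 100 bp from the summit they made up 1.23 to 1.68%, and at 1000 bp 0.230 to 0.306%. CA stood on the forward strand at 48.7 to 50.6% of CA repeat peaks, and on 49.8% of genomic CA tracts.

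**Figure D1:**
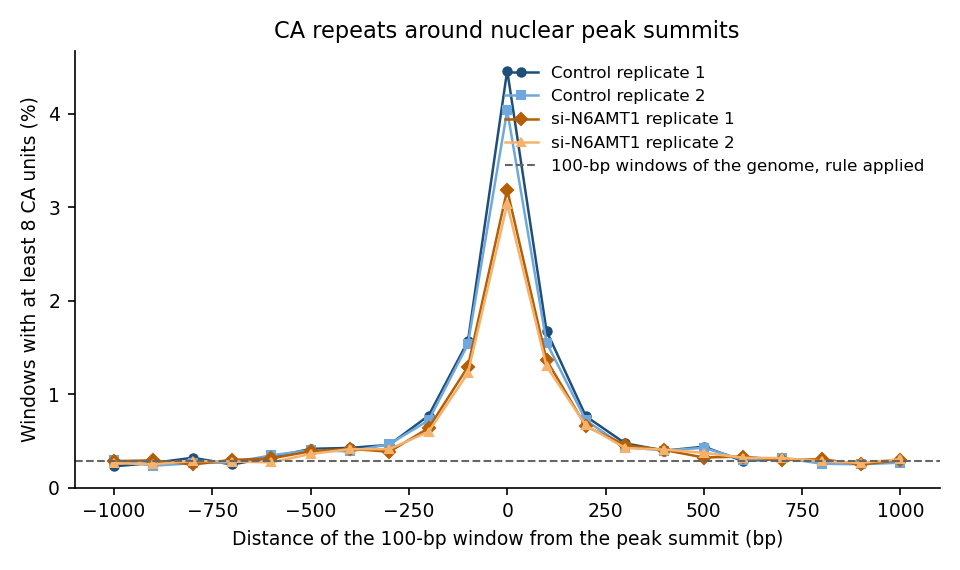
Percentage of 100-bp windows with at least 8 CA units (y axis, before the exclusions) against the distance of the window from the peak summit in bp (x axis), with 1 line per library and the genome share of windows passing the full rule as a dashed line. The 4 lines peak between 3.03 and 4.46% at the summit and lie near the dashed line at 1000 bp.

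The number of CA repeat peaks was slightly lower in si-N6AMT1 although its peak lists were longer. There were 1053 and 1083 CA repeat peaks in control against 971 and 994 in si-N6AMT1, so the groups did not overlap. The means were 1068 ± 21.2 in control and 982.5 ± 16.3 in si-N6AMT1 (SD, n = 2 each), a difference of -85.5 peaks or -8.01%. Nuclear peaks numbered 30446 and 33405 in control against 38842 and 40839 in si-N6AMT1. The share of CA repeat peaks was 3.35 ± 0.153% in control and 2.47 ± 0.0466% in si-N6AMT1 (SD, n = 2 each), a difference of -0.883 percentage points. The exact permutation test over the 4 libraries gave p = 0.33 for the number and for the share, the smallest value that 2 against 2 libraries allow. The test therefore cannot pass 0.05 here, and the comparison between the groups rests on whether their values overlap. All p-values here measure the spread between these libraries only.

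Depth and list length moved with the groups. Relative depth was the lowest local background of each list divided by its narrowest peak width, scaled to control replicate 1. It was 1 and 1.32 in control against 1.38 and 1.5 in si-N6AMT1. Per unit of that depth the lists held 1053, 818, 701 and 663 CA repeat peaks. When each list kept its 30446 peaks of highest -log10 p, 1053 and 1023 CA repeat peaks remained in control against 770 and 784 in si-N6AMT1. The groups did not overlap in lists of equal length either, where the difference was -261 peaks. With a 200-bp window there were 1323 and 1369 CA repeat peaks in control against 1319 and 1302 in si-N6AMT1, a difference of only -35.5 peaks without overlap.

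Peaks at adenine runs, which the rule sets apart, had the opposite order. Windows with a run of 12 adenines and no place in the CA repeat class made up 12.6% and 11.9% of nuclear peaks in control against 15.8% and 15.7% in si-N6AMT1. Windows with the excluded GA, GGAA or GAAA repeats, called purine repeats here, made up 8.79% and 8.0% in control against 8.60% and 7.81% in si-N6AMT1, so those groups overlapped. For every 100 adenine run peaks there were 27.5 and 27.4 CA repeat peaks in control against 15.9 and 15.5 in si-N6AMT1. For every 100 purine repeat peaks there were 39.3 and 40.5 in control against 29.1 and 31.2 in si-N6AMT1. Adenine run peaks numbered 3831 and 3959 in control against 6121 and 6431 in si-N6AMT1. Purine repeat peaks numbered 2676 and 2673 in control against 3341 and 3190 in si-N6AMT1. The ratios thus fell mainly through these larger counts, whereas the mean number of CA repeat peaks changed by -8.01%. The exact permutation test gave p = 0.33 for each of these ratios that had no overlap, again the smallest value possible.

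**Figure D2:**
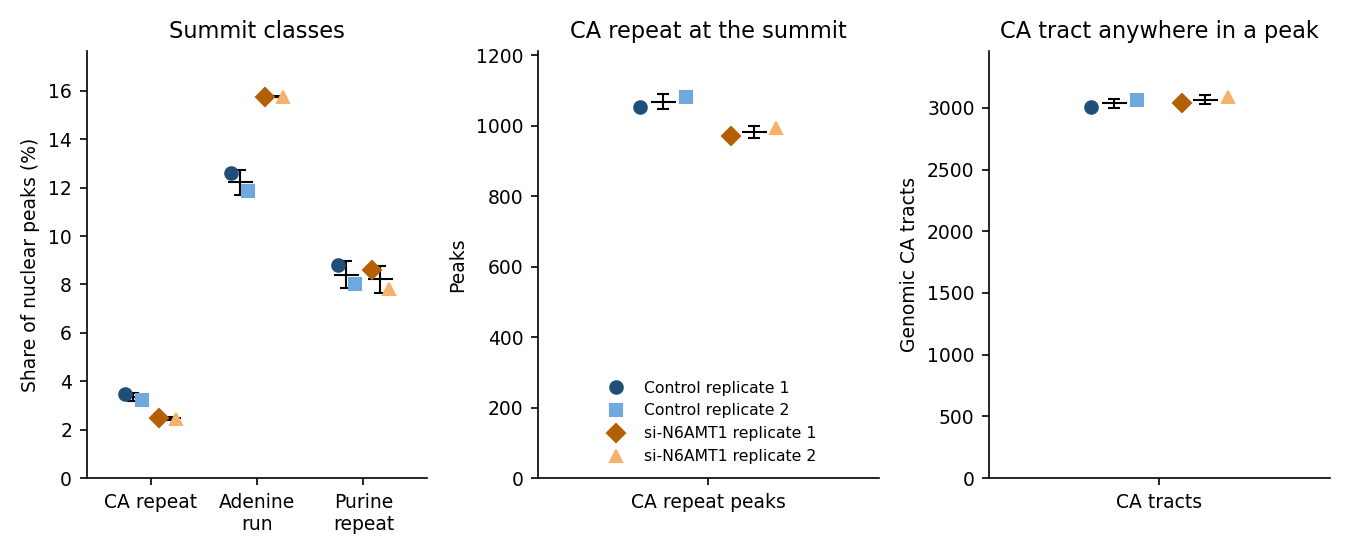
Share of nuclear peaks in 3 summit classes in percent (left), number of CA repeat peaks (middle) and number of genomic CA tracts lying anywhere inside a peak (right), with 1 point per library and the mean with SD of each group as bars (n = 2). The CA repeat share is 3.24 to 3.46% in control and 2.43 to 2.5% in si-N6AMT1, whereas the tracts inside a peak number 3010 to 3091 in all 4 libraries.

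The lower number in si-N6AMT1 held for summits on the repeat but not for repeats lying anywhere within a peak. The genome holds 92249 maximal CA tracts of at least 8 units, of which 86229 pass the exclusions in their own window. A summit window held at least 8 units of 1119 and 1125 of these tracts in control and of 1000 and 1050 in si-N6AMT1, or 1.30% and 1.30% against 1.16% and 1.22%. When a tract was counted wherever at least 16 bp of it lay inside a peak, the numbers were 3010 and 3062 in control against 3041 and 3091 in si-N6AMT1, and the groups overlapped. This count was added after seeing the data, and its difference was 0.0348 percentage points (exact permutation test, p = 0.667). Of the tracts inside a peak, 37.1% and 36.7% lay at a summit in control against 32.8% and 33.9% in si-N6AMT1. As a share of all nuclear peaks, peaks with a CA tract inside made up 9.60% and 8.94% in control against 7.61% and 7.25% in si-N6AMT1.

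CA repeat peaks were of middling strength within their lists. The fold enrichment was the ratio of fragment pileup at the summit to local background, with the same constant added to both. Its medians were 7.67 and 7.12 in control against 6.94 and 6.73 in si-N6AMT1. Median backgrounds were only 1.29 and 1.70 fragments in control against 1.70 and 1.81 in si-N6AMT1, so the constant lowers the fold below the plain ratio. In lists of equal length the group difference in median fold shrank from -0.57 to -0.21 and the groups overlapped. Over the full lists the other nuclear peaks had medians of 7.38, 6.91, 6.92 and 6.64 in the same order. The difference between the classes was 0.0185 to 0.299 in fold, positive in 4 of 4 libraries (exact sign-flip permutation test over libraries, p = 0.13, the smallest value 4 libraries allow, so this test cannot pass 0.05 either). Median pileups were 17 and 19 fragments in control against 18 and 19 in si-N6AMT1, so a single summit rests on few fragments. CA repeat peaks were narrower than the others in 4 of 4 libraries, with median widths of 418, 406, 411 and 410 bp against 449, 446, 445 and 444 bp (exact sign-flip permutation test, p = 0.13).

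The share was also read in 4 bins of equal size by the -log10 q of each list. In the weakest bin, 2.43% and 2.29% of control peaks and 2.34% and 1.99% of si-N6AMT1 peaks were CA repeat peaks, and the groups overlapped. In the next bin the shares were 3.48% and 3.61% in control against 2.70% and 2.52% in si-N6AMT1. The third bin held the highest shares in control, 4.94% and 4.22%, against 2.75% and 2.97%. In the strongest bin the shares were 3.04% and 2.86% in control against 2.20% and 2.25% in si-N6AMT1. The difference between bins was not tested.

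Longer CA tracts carried a summit more often. The median number of units of the longest tract in the summit window was 14 in each of the 4 libraries. Followed beyond the window, the tracts had a median of 16 units in each library, against 13 for all 86229 genomic tracts. A summit lay on 0.955%, 0.907%, 0.826% and 0.943% of genomic tracts of 8 to 11 units. On tracts of 16 to 19 units the shares were 1.70% and 1.65% in control against 1.44% and 1.37% in si-N6AMT1. On the 527 tracts of 28 units or more they were 2.66%, 2.85%, 1.9% and 2.85%, resting on only 14, 15, 10 and 15 tracts. The difference between the longest and the shortest class was positive in 4 of 4 libraries, with a mean of 1.65 percentage points (exact sign-flip permutation test, p = 0.13). A longer tract also meets the rule from more summit positions, and this geometry was not corrected for.

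**Figure D3:**
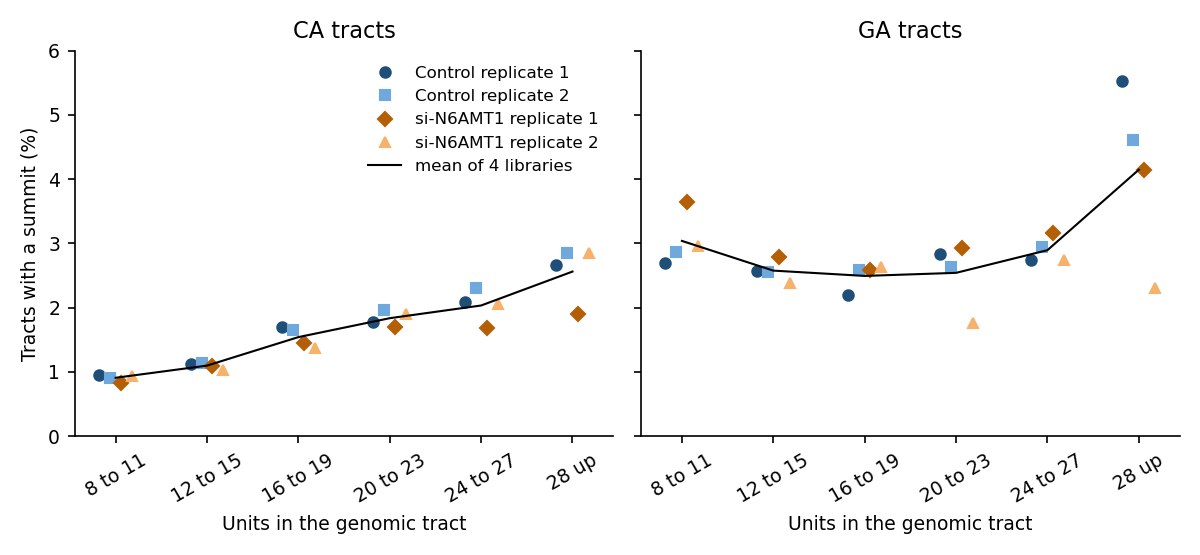
Percentage of genomic tracts with a summit (y axis) against the number of units in the tract (x axis) for CA tracts (left) and GA tracts (right), with 1 point per library and a line through the mean of the 4 libraries. The mean for CA tracts climbs from 0.908% at 8 to 11 units to 2.56% at 28 units or more, whereas GA tracts start at 3.04%. The exclusions were applied to CA tracts only.

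GA and TA tracts bounded the CA tracts from above and below. Of 27398 genomic GA tracts of at least 8 units, 2.66% and 2.80% had a summit in control against 3.38% and 2.78% in si-N6AMT1. Of 34655 TA tracts the shares were 0.0664% and 0.0548% in control against 0.0519% and 0.0404% in si-N6AMT1. CA tracts were thus below GA tracts (mean difference -1.66 percentage points) and above TA tracts (mean difference 1.19), each in 4 of 4 libraries (exact sign-flip permutation test, p = 0.13). Among tracts of 8 to 11 units the CA share minus the GA share was -2.81 to -1.74 percentage points, and the GA share showed no steady climb with length below 28 units. The CA tracts were those that pass the exclusions, whereas GA and TA tracts were not filtered and may lie beside adenine runs or other excluded repeats. The part of this filter in the differences was not tested. How well reads align within each kind of tract was not measured here.

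TA steps beside the CA tract were less frequent where a summit lay on it. At least 4 tandem TA units were sought in the 100-bp window centred on each tract, which holds the tract too. They lay close to 6.79% and 7.02% of CA tracts with a summit in control against 5.50% and 5.90% in si-N6AMT1. Among CA tracts without a summit the share was 13.5% in each library. The difference had a mean of -7.19 percentage points and the same direction in 4 of 4 libraries (exact sign-flip permutation test, p = 0.13). Tracts with a summit were longer, and a longer tract leaves less flank in that window, which was not corrected for. The AT content of the flanks differed less, at 60.3%, 60.7%, 59.6% and 60.3% with a summit against 61.9% without. The NAALADL2 window printed above is an example with TA steps on both sides of the repeat.

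CA repeat peaks lay in introns more often than CA tracts in general. Introns held 62.1% and 60.9% of CA repeat peaks in control against 60.1% and 57.7% in si-N6AMT1, compared with 53.2% of genomic CA tracts. The difference of 4.53 to 8.89 percentage points was positive in 4 of 4 libraries (exact sign-flip permutation test, p = 0.13). Other nuclear peaks were close to the tract value, with 52.8 to 53.3% in introns. Intergenic sequence held 33.6%, 35.7%, 34.8% and 38.2% of CA repeat peaks against 42.2% of genomic tracts. Promoters, within 1000 bp of a start site, held 3.51%, 2.77%, 4.22% and 3.52% against 3.06%, and the libraries lay on either side of that value. Exons held 0.503 to 0.824% of CA repeat peaks against 1.54% of genomic tracts. Control and si-N6AMT1 overlapped in the intergenic and exon shares. The lower si-N6AMT1 promoter share lay just above the higher control share, and the intron shares were 61.5 ± 0.825% and 58.9 ± 1.70% (SD, n = 2 each; exact permutation test, p = 0.33).

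Within genes the repeat lay mostly with TG on the sense strand. Where the summit fell in protein-coding genes of 1 strand only, CA read on the sense strand at 27.7% and 30.6% of CA repeat peaks in control against 30.8% and 29.6% in si-N6AMT1. These shares rest on 538, 568, 481 and 480 peaks. Among genomic CA tracts in such genes the share was 41.7%. The libraries lay below it by 11 to 14 percentage points, in 4 of 4 libraries (exact sign-flip permutation test, p = 0.13). The same was seen for tracts of 8 to 15 units, with 30.7 to 34.4% against 41.9%, and for tracts of 16 units or more, with 25.7 to 30.3% against 41.4%. The groups overlapped over all tracts and over the longer ones, whereas for tracts of 8 to 15 units both si-N6AMT1 shares, 33.2% and 34.4%, lay above the control shares of 30.7% and 32.1%. The deposited peaks carry no strand, and strand here is that of the reference sequence and the gene.

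**Figure D4:**
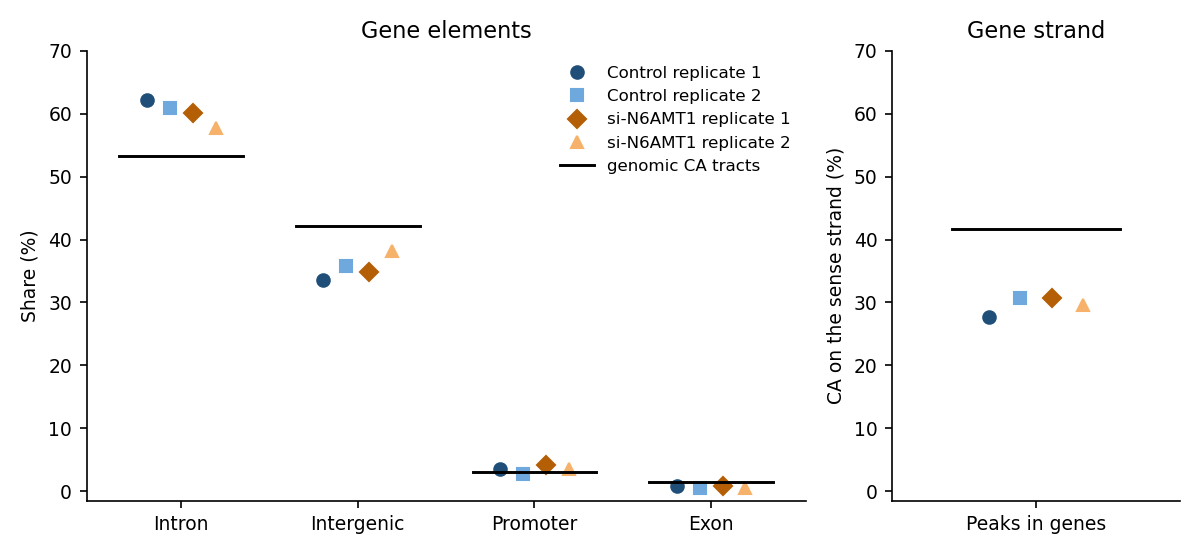
Share of CA repeat peaks by gene element in percent (left) and share of CA repeat peaks in genes with CA on the sense strand in percent (right), with 1 point per library and a black line for genomic CA tracts. Intron shares of 57.7 to 62.1% lie above the tract line at 53.2%, and sense-strand shares of 27.7 to 30.8% lie below the line at 41.7%.

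Between replicates of a group, CA repeat peaks recurred less often than other peaks in each library. In control, 45.9% of CA repeat peaks of replicate 1 overlapped a peak of replicate 2 by at least 1 bp, and 45.4% in the reverse direction. In si-N6AMT1 the values were 48.0% and 47.0%. Other nuclear peaks overlapped at 58.8%, 53.6%, 57.4% and 54.7%. The difference was negative in 4 of 4 libraries with a mean of -9.56 percentage points (exact sign-flip permutation test, p = 0.13). These 4 values are the 2 directions of 2 replicate pairs and are not independent. That test took them as independent, whereas with 2 pairs its smallest possible p is 0.5. Within the bins of -log10 q, a comparison added after seeing the data, the mean difference was -9.61. With a 200-bp window it was -5.21. Between the groups, 42.5 to 44.4% of control CA repeat peaks overlapped a si-N6AMT1 peak, against 58.7 to 62.2% of other control peaks. In the other direction 41.8 to 46.1% of si-N6AMT1 CA repeat peaks overlapped a control peak, against 45.9 to 50.1% of other si-N6AMT1 peaks. There the difference ranged from -8.26 to 0.13 percentage points, with si-N6AMT1 replicate 2 against control replicate 1 at the upper end, and these differences were not tested.

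Peaks of the 4 libraries that shared at least 1 bp were merged into 72532 nuclear regions, of which 2943 held a CA repeat peak and are called CA repeat regions. A region with more peaks has more chances to hold a CA repeat peak, so these regions lean towards regions called in several libraries. They held 6006 peaks, of which 1905 did not pass the rule themselves. A CA tract lay inside 91.3% of these 1905 peaks, partly or wholly outside the summit window or beside an excluded sequence. Of the 1905, 164 had 8 CA units in the window but also an excluded sequence.

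CA repeat regions called in a single group were similar in number between the groups. There were 140 CA repeat regions called by both libraries of control and by none of si-N6AMT1, or 4.76%, against 2.63% of all nuclear regions. Another 133 were called by both libraries of si-N6AMT1 and by none of control, or 4.52%, against 5.86% of all nuclear regions. All 4 libraries called 501, or 17.0%, against 16.7%, which is near the background. Regions only in si-N6AMT1 thus numbered 0.950 times those only in control for CA repeats, 2.98 times for adenine runs, 2.56 times for purine repeats and 2.23 times for all nuclear regions. With lists of equal length there were 160 CA repeat regions only in control, or 6.16% against 4.19% of all regions. In those lists 84 were only in si-N6AMT1, or 3.23% against 4.16%. The order of both counts turned with the number of libraries that had to call a region. Without control replicate 1 there were 473 control-only and 241 si-N6AMT1-only regions, and without control replicate 2 there were 447 and 215. Without si-N6AMT1 replicate 1 there were 230 and 403, and without si-N6AMT1 replicate 2 there were 231 and 418. The matching shares over all nuclear regions were not counted with a library left out, so these counts cannot be read as particular to CA repeats. These counts carry no test. Regions called in 1 library alone made up 45.6% of CA repeat regions, against 49.6% of all nuclear regions.

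Fold enrichment in the 501 regions called in all 4 libraries was similar to that of other such regions. Median folds were 8.79 and 8.10 in control against 8.04 and 7.91 in si-N6AMT1. Over all 12127 nuclear regions called in all 4, the medians in the same order were 8.84, 8.38, 8.45 and 8.25. Both si-N6AMT1 folds were under both control folds in 132 regions, or 26.3%, against 24.3% of all such regions. They were over both control folds in 68, or 13.6%, against 16.9%. The median log2 difference of si-N6AMT1 from control was -0.09 for CA repeat regions and -0.05 for all, a difference of -0.05 between the medians. The split depended on the scaling. With folds centred on each library's median, 115 (23%) were lower and 91 (18.2%) higher, against backgrounds of 21.3% and 20.7%. With pileup divided by relative depth, 188 (37.5%) were lower and 26 (5.19%) higher, against backgrounds of 30.6% and 5.42%. That scaling moved the median of all regions by -0.12 on the log2 scale. The lower regions made up 66.0% of the CA repeat regions without overlap for the deposited fold, 55.8% for the centred fold and 87.9% for the pileup. Of the 501 regions, 226 held a CA repeat peak in 1 library, 123 in 2, 91 in 3 and 61 in all 4.

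**Figure D5:**
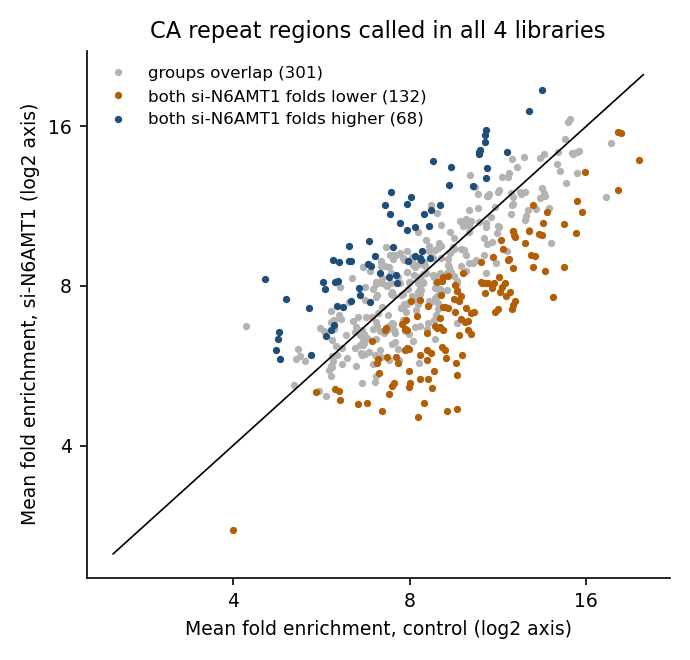
Mean fold enrichment in si-N6AMT1 (y axis) against that in control (x axis), both on log2 axes, for the 501 CA repeat regions called in all 4 libraries, each a point, with the line of equality. Coloured points are the 132 regions with both si-N6AMT1 folds lower and the 68 with both higher than in control.

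The highest-ranking regions whose summits lay on a repeat in every library that called them are described without a test, since enrichment chose them. The intergenic region chr1:145084218-145084714 held 23 TG units and had folds of 8.96 and 9.07 in control against 7.27 and 6.10 in si-N6AMT1. Its control folds were both higher. A region in the lncRNA gene ENSG00000233358, chr6:22906402-22906984, held a tract of 8 units among broken CA runs and had folds of 11.2, 9.27, 12.8 and 11.9. There both si-N6AMT1 folds were higher. The intergenic regions chr1:170332576-170333597, with 16 TG units, and chr7:46902514-46903157, with 17 CA units, had folds of 11.5, 14.4, 11.5 and 11.3 and of 9.49, 10.5, 9.19 and 11.9.

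In NAALADL2, the intronic region chr3:175146738-175147262 with 17 CA units had folds of 9.77 and 11.5 in control against 8.04 and 8.15 in si-N6AMT1. In THRA, the gene of thyroid hormone receptor alpha, the intronic region chr17:38243116-38243941 had folds of 14.2 and 10.2 in control against 13.2 and 13.5 in si-N6AMT1, which overlap. Its window holds tracts of 8 units separated by other bases. In SAMD4A, which encodes an RNA-binding translational repressor, the intronic region chr14:55144904-55145425 spanned the longest repeat among CA repeat regions of this kind called in all 4 libraries, 41 TG units. Its folds were 8.79 and 8.10 in control against 9.79 and 7.97 in si-N6AMT1, so a long repeat went with no separation of the groups here. The intergenic region chr1:230966080-230966849, with a repeat of 32 TG units, had folds of 8.57 and 10.7 in control, both above the 8.39 and 7.27 of si-N6AMT1.

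Among regions called only in control, the intronic region of TMC1, a channel subunit of inner ear hair cells, at chr9:75232650-75233102 had 20 TG units and folds of 10.8 and 9.33. In RPH3A, which encodes a synaptic vesicle protein, the intronic region chr12:113251603-113252063 had a tract of only 8 units and folds of 14.6 and 9.31. The intergenic region chr13:65990246-65990707 had 18 CA units and folds of 9.39 and 8.82. Among regions called only in si-N6AMT1, the intronic region of RUNDC3B at chr7:87412276-87412910 had 8 TG units and folds of 8.97 and 10.7. The region chr3:171611323-171611793, over the promoter of the lncRNA gene TMEM212-IT1, had 17 CA units and folds of 5.81 and 5.54. Long and short tracts thus both occurred among the regions only in control.

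Promoter and exon members were few. The region chr20:36793857-36794917 lay over the promoter of TGM2, which encodes a protein-crosslinking transglutaminase, with its summit upstream of a start site (position -434 bp). Its folds were 13.6 and 9.07 in control against 7.58 and 6.91 in si-N6AMT1, with pileups of 39, 31, 28 and 27 fragments, so the groups did not overlap. At chr3:169341459-169341880, within MECOM and at the start of the lncRNA gene ENSG00000242795, folds were 7.68, 6.38, 7.39 and 6.04 and overlapped. The region chr12:54147248-54147719, over the promoter of the lncRNA gene ENSG00000260030, was called only in control, with folds of 9.18 and 8.82. In an exon of SAMD9L, an interferon-induced gene, the region chr7:92759746-92760148 with 21 TG units was called only in si-N6AMT1, with folds of 5.65 and 7.54. An exon of the lncRNA gene LINC02036 held the region chr3:193920287-193920845, with folds of 10.3 and 8.04 in control against 7.95 in si-N6AMT1 replicate 2, while si-N6AMT1 replicate 1 had no call. An exon of the lncRNA gene HELLPAR held the region chr12:102598355-102598795, called in control replicate 2 with a fold of 7.88 and in si-N6AMT1 replicate 2 with a fold of 4.39.

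CA repeat regions lay in the bodies of 1339 protein-coding genes, of which 1148 held 1 and 191 held more. Those with the most were long genes. This count chose them, so their regions per tract are not read against the genome value of 3.41 CA repeat regions per 100 CA tracts. CNTN5, which encodes a neuronal cell adhesion molecule, held 7 regions over 42 CA tracts, with 3 and 4 CA repeat peaks in control against 5 and 2 in si-N6AMT1. NAALADL2 held 7 over 59 tracts, with 6 and 4 against 2 and 3. LPP, the gene of a LIM-domain protein of focal adhesions, held 6 over 38 tracts, with 2 and 4 against 3 and 0. MECOM, the gene of a zinc finger transcription factor, held 5 over 25 tracts, with 4 and 3 against 4 and 2. MYO16, an unconventional myosin gene, held 5 over 28 tracts, with 2 and 1 against 3 and 4. Of these 5 genes, NAALADL2 had counts in control over both counts in si-N6AMT1, and MYO16 had the reverse order.

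Gene lists were read against all protein-coding genes with 5000 bp on either side. Of those 20149 genes, 11738 held a CA tract and 1518, or 7.53%, held a CA repeat region. Among the genes with a CA tract, 12.8% held a CA repeat region. Over the genome there were 3.41 CA repeat regions for every 100 CA tracts. Of the 8 cell cycle regulators of the study, 6 held 13 CA tracts in all and 1, the retinoblastoma tumour suppressor gene RB1, held 2 CA repeat regions. The intronic RB1 region chr13:49067087-49067829 was called in all 4 libraries, with folds of 13.7 and 13.4 in control against 15.6 and 12.8 in si-N6AMT1. The neighbouring region chr13:49072920-49073516 was also called in all 4, with folds of 10.7 and 9.24 in control against 8.74 and 12.4 in si-N6AMT1. The groups overlapped in both regions. In each region a CA repeat peak was found in 1 control and 1 si-N6AMT1 library. In the other libraries the summit window did not pass the rule, and whether the summit lay off the repeat or beside an excluded sequence was not separated.

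Genes of mismatch repair, which acts on slipped repeats, held 19 CA tracts in 6 of 9 genes and 0 CA repeat regions. Over the genome there were 3.41 regions per 100 tracts, and with so few tracts 0 cannot be told apart from that value. Of 13 genes with a CA repeat known as a studied polymorphism, 12 held 53 tracts in all. EGFR, the epidermal growth factor receptor gene, alone held CA repeat regions, 2 in all. Over the genome 12.8% of genes with a CA tract held such a region, so 1 of 12 is not read as particular. Every CA tract of the gene and its flanks was counted, and the studied repeat itself was not located. The EGFR region chr7:55123218-55123568 was called in control replicate 1 alone, with a fold of 6.25. The EGFR region chr7:55159383-55159766, with 21 CA units, was called in control replicate 2 alone, with a fold of 7.92. N6AMT1 itself held 1 CA tract and 0 CA repeat regions.

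CA repeat peaks were unevenly spread over chromosomes. Per 100 genomic CA tracts, chromosome 14 held a mean of 1.99 CA repeat peaks over the 4 libraries, chromosome 20 held 1.80 and chromosome 1 held 1.77. Among chromosomes 1 to 22 and X, the lowest values were 0.216 on chromosome 18, 0.434 on chromosome X and 0.577 on chromosome 16. Other nuclear peaks also differed, with 14.4 per Mb on chromosome 14 and 3.05 on chromosome 18. The chromosome copy number of the line was not analysed here, and its part in these values was not tested. The ratio of si-N6AMT1 to control ranged from 0.519 on chromosome 22, with 12 and 15 against 7 and 7 peaks, to 1.5 on chromosome 16, with 11 and 11 against 13 and 20. Of these 23 chromosomes, 14 had a lower mean in si-N6AMT1. Both si-N6AMT1 counts were under both control counts on 5 chromosomes and over both on 5 others. The same was not counted for other nuclear peaks, and some chromosomes held few CA repeat peaks, such as 5, 4, 6 and 6 on chromosome 18. No conclusion on single chromosomes is drawn from these counts, which carry no test.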

How the data were processed

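DNA of MDA-MB-453 cells was sonicated, denatured and precipitated with the 6mA antibody, and 4 libraries were sequenced as paired 150-bp reads. Trimming was by Trimmomatic and alignment to hg19 by Bowtie2 2.3.5. The authors dropped duplicates with SAMtools 1.9 and called peaks per library with MACS2 at a p threshold of 1e-05. Which input entered each call is not given in the sources used here. The deposited lists give each peak's bounds, its summit and a score made from its q value. They also give the fold, the −log10 p and the −log10 q of the summit, with no read count and no depth. The fold is a ratio to local background with the same constant added to both terms. Removing duplicates and calling at a threshold both limit how many fragments a summit can show, and alignment within repeats can lose reads.

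Sequence windows and maximal tracts were read from GRCh37 (samtools 1.23.1, Python 3.11.15, NumPy 2.4.6, pandas 2.3.3, SciPy 1.17.1), with elements from the GENCODE basic transcripts of protein-coding and lncRNA genes lifted to that build. A summit or tract centre was put in a promoter, then an exon, then an intron, and otherwise called intergenic. Strand was read in protein-coding genes, gene bodies are the annotated gene records, and 20 peaks outside chromosomes 1 to 22, X and Y were left out. The pileup was recovered from the deposited fold and −log10 p, and all pileups were whole within 0.02 on the −log10 p scale. Peaks sharing at least 1 bp were merged, and a region took each library's peak of highest −log10 q. Group differences used the exact two-sided permutation test over 6 assignments of the libraries, and differences between classes in the same library used the exact two-sided sign-flip permutation test. The sequence rule, tract hits, pileup recovery and region classes were tested on simulated data. The members, gene lists and comparisons were chosen with earlier results of these data known. Named regions of chromosomes other than 8 were ranked by −log10 q, as the lowest percentile that any calling library gave them, taking 6 called in all 4 libraries, 3 called only in control, 3 called only in si-N6AMT1, 3 with the longest tract, and up to 4 each in promoters and exons. The values and sequence of 1 of these regions are not reported here. Named genes were the 5 with most CA repeat regions and 3 lists with N6AMT1, and list members without a CA repeat region are given as counts only. Alternatives used lists of equal length, peaks whose −log10 q reached 5, each replicate left out, a 200-bp window, exclusions on the listed strand alone, at least 12 units, all tracts, a wider promoter, an overlap of 50%, other scalings of the fold, and a replicate block. Because each list holds called peaks only, the values have counting error that these lists cannot give an interval for.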

Additional observations from a re-analysis of the deposited data

How the results depend on the processing

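Of 132 alternative values, 103 stayed within 1.5 times the value reported and 29 did not. No result could pass the threshold of its test, so the p-values say nothing about stability. The difference in the share of genomic CA tracts reversed when a tract anywhere inside a peak was counted, from -0.11 to 0.0348 percentage points. This alternative was added after seeing the data, and it does not depend on where the summit falls. Equal numbers of peaks gave a difference of -0.50 in the median CA units, against 0, -261 CA repeat peaks against -85.5, -0.215 in the median fold against -0.566, -0.321 percentage points of tracts against -0.112, and 84 CA repeat regions called only in si-N6AMT1, against 133. The 200-bp window gave -35.5 CA repeat peaks and -5.21 percentage points of replicate overlap against -9.56. The cause of these differences was not tested. At least 12 units left 289 regions called in all 4 libraries, 82 with lower and 37 with higher fold, since fewer peaks qualify. The pileup over relative depth gave 26 regions with higher fold.

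Leaving out each replicate in turn gave -100.5 to -70.5 CA repeat peaks, -0.992 to -0.775 percentage points for their share and -0.841 to -0.291 for the median fold, the smallest difference being that without control replicate 1. The same gave 0 for the median units, -0.141 to -0.0835 percentage points for tracts with a summit, -1.76 to -1.47 against GA tracts and 1.17 to 1.22 against TA tracts. It gave 6.4 to 7.85 percentage points for introns and -10.6 to -8.57 for replicate overlap, where only the complete group remains. Regions only in control ranged from 230 to 473, only in si-N6AMT1 from 215 to 418, and called in every remaining library from 545 to 554. Regions with lower fold ranged from 208 to 283 and with higher fold from 120 to 180, since fewer libraries must meet each rule. The matching shares over all nuclear regions were not counted for these ranges of regions.

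The labels link same-numbered libraries by the number alone. The correlation of their deviations over regions was 0.0124 for calls and 0.0144 for the log2 fold in CA repeat regions. This correlation cannot show a shift common to all regions of a library. Relative depth and the number of nuclear peaks were higher in replicate 2 than in replicate 1 of each group. Whether same-numbered libraries shared a batch was not tested. The replicate block gave the same differences, -85.5 peaks, -0.883 percentage points, -0.566 in fold, 0 units and -0.112 percentage points of tracts, with exact p = 0.5 for all but the units, where p = 1. With 2 libraries per group no comparison could pass 0.05, and with a median pileup of 17 to 19 fragments the place of a summit is known only roughly. Relative depth was higher in both si-N6AMT1 libraries and cannot be told apart from the group in counts of peaks.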
